A study of Mus musculus with 6 samples.

Results

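Messenger RNA of the factors that start and lengthen protein chains was compared between wild-type mice and mice carrying a knockout of a Myc enhancer. The factors were chosen by name. They are all genes whose platform symbol begins with Eif1 to Eif6 or with Eef1 or Eef2, with the Eif2ak kinases left out, which gave 118 of the 45281 array probes and 59 of the 19057 genes named on the array. The rule uses names and no measured value. Biotin-labelled total RNA was hybridised to Illumina bead arrays, which report the brightness of beads carrying 1 probe sequence each. The WT group holds 3 arrays of N-Me wild type mice given the vehicle, corn oil, and the KO group 3 arrays of N-Me knockout mice given tamoxifen at 3 mg/kg in corn oil. N-Me is an enhancer, a stretch of DNA that raises transcription of a distant gene, that is bound by NOTCH1 and acts on Myc. Every mouse was of strain C57 BL6, injected intraperitoneally and processed at 40 h. Genotype and treatment changed together, so an effect of tamoxifen and an effect of the deletion cannot be told apart. The design text calls the knockout conditional, and the labels name no tissue, no recombinase driver and no age.

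Translation begins when eIF2 brings the initiator tRNA to the small ribosomal subunit, with eIF1, eIF1A and eIF3 holding the subunit open to scan the mRNA. The eIF4 factors bind the 5′ cap and unwind the leader, eIF5 and eIF5B release eIF2 and join the large subunit, and eIF6 keeps free large subunits apart from small ones. eEF1A then delivers each aminoacyl-tRNA and eEF2 moves the ribosome along. The eIF4E-binding proteins hold the cap-binding protein inactive until mTORC1 phosphorylates them. MYC is a transcription factor known for raising genes of ribosome production and translation, Eif4e among them, and it binds the E-box CACGTG.

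Of the 59 genes, 48 had a probe detected above background at a detection p under 0.05 on at least 3 arrays. All 48 tested probes were detected on all 6 arrays, so no member entered the test through 1 group alone. Each gene was represented by its brightest probe, and values are background-corrected, quantile-normalized log2 signals. Differences are KO minus WT from limma's fit over 10209 genes, with p-values adjusted by Benjamini-Hochberg over all of them, and a gene is said to have fallen or risen where its adjusted p was under 0.05. The Myc transcript, the check of the knockout, read 8.95, 8.75 and 9.04 on the WT arrays and 7.42, 6.95 and 7.11 on the KO arrays. It was 3.37-fold lower in KO (-1.75 ± 0.16 SE, adjusted p = 0.000406). The probe measures the transcript and not the enhancer.

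Members fell more often than they rose. In KO, 16 of 48 (33.3%) fell and 1 (2.08%) rose, against 17.1% lower, 19.7% higher and 36.9% in either direction among all genes tested. The median difference of the members was -0.31 on the log2 scale and that of all genes 0.0011. The share with a negative difference was 41 of 48, against 49.9% of all genes. In 24 members every KO array lay below every WT array, against 24.4% of all genes, and in 2 members, Eif4ebp1 and Eif2b4, every KO array lay above, against 26.1%. Arrays of whole samples cannot tell fewer cells of a type from less RNA per cell. Single arrays moved these counts. Of the 48 members 10 fell when WT replicate 2 was left out, against 14.9% of all genes. Without WT replicate 3 it was 7, against 11.2%, and without KO replicate 2 it was 10, against 13.9%. When any array other than WT replicate 2 was left out 0 members rose, against 13.1% to 20.5% of all genes.

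**Figure D1:**
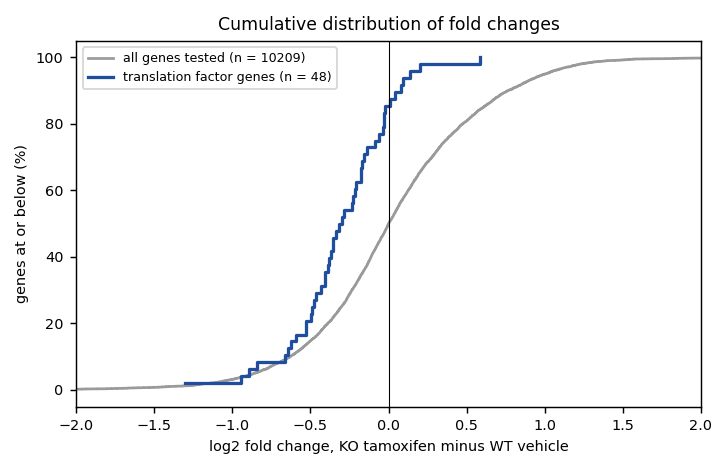
Log2 difference between KO and WT of the 48 tested translation factor genes beside that of all 10209 tested genes. The members lie mostly to the left of 0, around a median of -0.31, while the median of all genes is 0.0011.

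Most differences were small. Of the members, 10 (20.8%) were lower by 0.5 or more on the log2 scale, against 14.8% of all genes, but 1 (2.08%) was lower by 1 or more, against 3.17%. At the other end, 1 member (2.08%) was higher by 0.5 or more, where 19.1% of all genes were, and 0 were higher by 1 or more, where 5.05% of all genes were. Among the 38 Eif genes 15 fell and 1 rose, at a median of -0.33. Among the 10 Eef genes 1 fell and 0 rose, at a median of -0.25. The difference between these 2 families was not tested.

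The median of the members lay below the WT level on every KO array. Taking each member relative to its WT mean, the median over the 48 members was -0.17, -0.31 and -0.34 on KO replicates 1, 2 and 3, and -0.01, -0.02 and 0.04 on the WT arrays. The number of members below all 3 WT arrays was 31, 33 and 36 on those KO arrays, and the number above all 3 was 5, 4 and 3. KO replicate 1 thus lay nearest to WT, and KO replicate 3 was the lowest KO array in 23 members. The shares of all genes below or above all 3 WT arrays on a single KO array are not given here. These counts by array therefore cannot be set against all genes. Over all tested genes the arrays correlated at r of 0.984 to 0.993 within groups and 0.950 to 0.970 between them, across genes, which are not independent replicates.

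**Figure D2:**
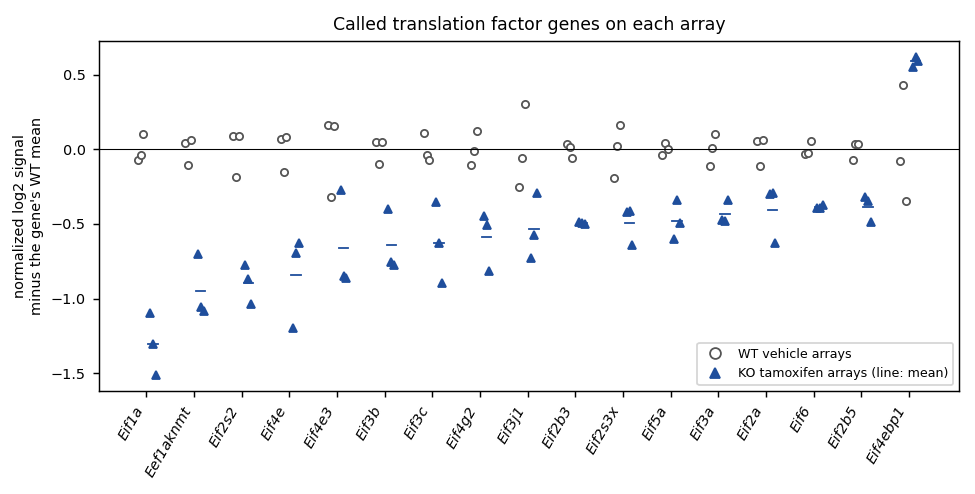
Deviation of each of the 17 called members from its WT mean, in log2 units, on each of the 6 arrays. These members were picked by the test. Over all 48 tested members, most of them not drawn, the medians of the 3 KO arrays, -0.17, -0.31 and -0.34, all lie below those of the 3 WT arrays.

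By class, the number that fell of those tested was 1 of 3 for eIF1, 2 of 2 for the eIF2 subunits, 3 of 7 for eIF2B and other Eif2 genes, 4 of 10 for eIF3, 3 of 9 for eIF4, 1 of 3 for eIF5 and 1 of 1 for eIF6. It was 1 of 7 for eEF1 and 0 of 3 for eEF2. The only class with a rise was the eIF4E-binding proteins, with 1 of 3 higher and 0 lower. Class medians ran from -0.69 for the eIF2 subunits to -0.03 for the eIF4E-binding proteins. The classes are small, and differences between them were not tested.

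**Figure D3:**
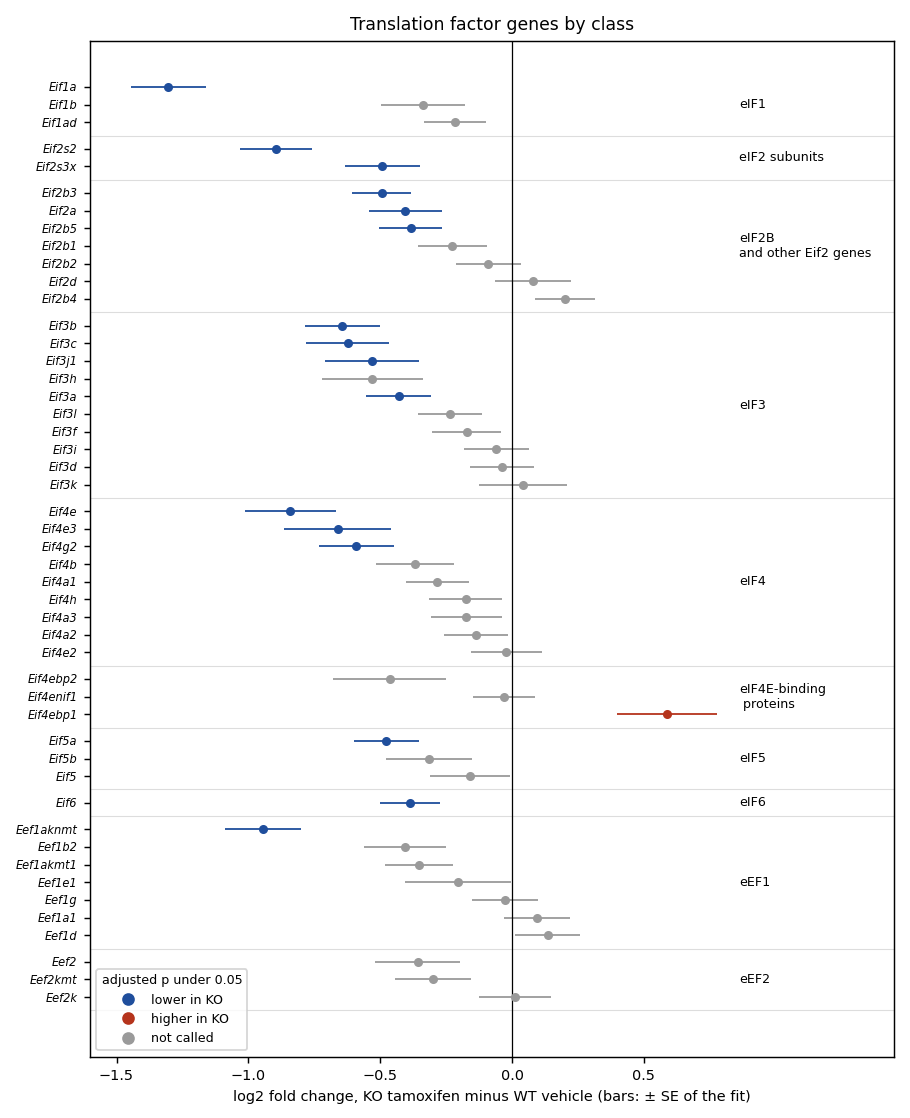
Log2 difference between KO and WT of each tested member, with its standard error, grouped by factor class. Called genes are marked, and all but Eif4ebp1 lie to the left of 0.

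The start regions of 4 members are printed here because Eif4e and Eef1aknmt were among the clearest falls and carry the E-box, Eif2s2 fell as clearly without one, and Eef2 carries one but was not called. Each is the 250 bases before an annotated start, 5′ to 3′ on the gene's strand, from RefSeq in build GRCm38.p6, and capitals mark CACGTG. The regions are chr3:138527018-138527267 on the plus strand for Eif4e, chr1:162548346-162548595 on the minus strand for Eef1aknmt, chr2:154892907-154893156 on the minus strand for Eif2s2 and chr10:81176381-81176630 on the plus strand for Eef2.
Eif4e: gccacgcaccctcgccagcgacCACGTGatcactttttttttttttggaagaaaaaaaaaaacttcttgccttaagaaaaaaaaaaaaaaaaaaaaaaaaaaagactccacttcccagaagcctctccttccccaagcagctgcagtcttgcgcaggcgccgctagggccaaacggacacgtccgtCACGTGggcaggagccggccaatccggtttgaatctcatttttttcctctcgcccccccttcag
Eef1aknmt: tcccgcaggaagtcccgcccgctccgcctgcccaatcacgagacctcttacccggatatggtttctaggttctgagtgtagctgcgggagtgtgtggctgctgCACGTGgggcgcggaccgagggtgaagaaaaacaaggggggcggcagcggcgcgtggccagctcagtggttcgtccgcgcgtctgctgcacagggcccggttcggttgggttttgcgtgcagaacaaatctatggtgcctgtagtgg
Eif2s2: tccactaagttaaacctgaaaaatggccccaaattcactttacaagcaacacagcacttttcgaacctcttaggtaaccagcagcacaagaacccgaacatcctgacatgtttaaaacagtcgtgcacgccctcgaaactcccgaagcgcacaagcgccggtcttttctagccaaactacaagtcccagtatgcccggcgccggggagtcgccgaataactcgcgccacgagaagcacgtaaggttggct
Eef2: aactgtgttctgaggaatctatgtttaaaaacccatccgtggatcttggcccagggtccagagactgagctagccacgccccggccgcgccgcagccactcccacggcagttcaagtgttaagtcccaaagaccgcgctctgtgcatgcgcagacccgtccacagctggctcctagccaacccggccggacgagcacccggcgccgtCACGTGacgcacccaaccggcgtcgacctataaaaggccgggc
The first base of the motif lies 228 and 64 bases before the start in Eif4e, 147 in Eef1aknmt and 43 in Eef2. Eif4e has 2 annotated starts, and the window of the other one, not printed, does not hold the motif.

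CACGTG reads the same on both strands, and it was sought in windows from 250 bases before to 50 after each annotated start. A gene was counted if any of its windows held the motif, as 1 of 2 did for Eif4e and 3 of 6 for Eif5a. It was present in 11 of the 37 tested members that have a window (29.7%), against 986 of 8303 tested genes of the array (11.9%) and 2187 of all 27025 genes with a window (8.09%). Counted per window, 2349 of all 32851 promoters held it (7.15%). Among members it was found in 4 of the 11 with a window that fell (36.4%), namely Eif4e, Eef1aknmt, Eif3a and Eif5a, and in 7 of 26 that were not called (26.9%), namely Eef2, Eef2k, Eif1b, Eif3f, Eif3k, Eif4a1 and Eif4h. Eif1a, the largest fall, and Eif2b3, Eif4e3, Eif4g2 and Eif6 also fell but have no window, so they are missing from this count. Eif4ebp1, the only rise, has none either. The median difference was -0.34 for the 11 tested members with the motif and -0.23 for the 26 without. Among all array genes the shares were 14.1% of those lower, 11.1% of those higher and 11.5% of those not called. The match is of letters in a window and says nothing of binding in these mice.

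The largest fall was that of Eif1a, which encodes a factor of the scanning complex that helps to recognise the start codon. Its log2 signal was 11.71, 11.74 and 11.88 on the WT arrays and 10.68, 10.47 and 10.26 on the KO arrays. All KO values lay more than 1 unit below the lowest WT value. The difference was -1.30 ± 0.14 (SE, adjusted p = 0.000826), a 2.47-fold lower signal, and the call held in all 16 alternatives tried. The other tested members of the class were not called: Eif1b, a close relative of the start-site factor eIF1, differed by -0.34 ± 0.16 (SE, adjusted p = 0.129), and Eif1ad, an eIF1A-like protein, by -0.22 ± 0.12 (SE, adjusted p = 0.181), although its groups did not overlap. Eif1ax was not detected on any array.

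eIF2 has 3 subunits, which together with GTP carry the initiator tRNA. Eif2s2, the beta subunit, read 11.69, 11.42 and 11.69 on the WT arrays and 10.82, 10.73 and 10.56 on the KO arrays. Its KO arrays were tightly grouped and all below WT, with means of 11.60 ± 0.16 in WT and 10.70 ± 0.13 in KO (SD, n = 3 each). The fall was -0.89 ± 0.14 (SE, adjusted p = 0.00214), or 1.86-fold, a second probe gave -0.95 ± 0.16 (SE, adjusted p = 0.00408), and both calls held in every alternative. Eif2s3x, the gamma subunit encoded on the X chromosome, read 11.99, 12.20 and 12.35 on the WT arrays and 11.76, 11.77 and 11.54 on the KO arrays. WT replicate 1 was only slightly above the 2 higher KO arrays. The fall was smaller, at -0.49 ± 0.14 (SE, adjusted p = 0.0252), and did not pass when WT replicates 2 or 3 or KO replicate 3 were left out (difference from -0.59 to -0.41, adjusted p up to 0.0926). The alpha subunit gene was not analysed here.

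Eif2s3y, the Y-chromosome copy of the gamma subunit gene, had 2 probes, and neither was detected on any of the 6 arrays. Their raw signals were 102.9 to 131.4, and the median raw signal of the arrays was 121.8 to 132.4. Of other Y-linked genes, Kdm5d was not detected on any array, while 1 of the 4 probes of Uty was detected on 5 arrays, at raw signals of 129.0 to 159.4 over the 6 arrays, and its other probes on 0. All 4 probes of Xist, which is transcribed from the inactive X chromosome, were detected on all 6 arrays. Eif2s3x-ps1, named as a pseudogene of the X copy, was not detected either. Near-identical copies can share a probe, so signal between these copies is uncertain.

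eIF2B recharges eIF2 with GTP. Its gamma subunit gene Eif2b3 read 10.48, 10.46 and 10.39 on the WT arrays and 9.95, 9.94 and 9.94 on the KO arrays. The 3 KO arrays were almost equal and clearly below WT. The fall was -0.49 ± 0.11 (SE, adjusted p = 0.0101) and held in every alternative. Eif2b5, the catalytic epsilon subunit, read 11.60, 11.71 and 11.71 on the WT arrays and 11.35, 11.33 and 11.19 on the KO arrays, without overlap. It fell by a smaller amount (-0.38 ± 0.12 SE, adjusted p = 0.0334). Eif2a, which despite its name is not the alpha subunit of eIF2 but a separate initiator tRNA-binding protein, read 12.63, 12.47 and 12.64 on the WT arrays and 12.28, 12.29 and 11.95 on the KO arrays, again without overlap. Its difference was -0.41 ± 0.14 (SE, adjusted p = 0.0487). Leaving out any array but KO replicate 1 ended the calls of Eif2b5 (-0.42 to -0.33, adjusted p up to 0.103) and Eif2a (-0.46 to -0.30, adjusted p up to 0.15), as did the replicate block, and the call of Eif2a also ended with no filter on dim probes. The other members were not called, at -0.23 for Eif2b1, -0.09 for Eif2b2, 0.08 for Eif2d, which can bring tRNA to the ribosome without GTP, and 0.20 for Eif2b4. The KO arrays of Eif2b4 all lay above WT, with 0.20 ± 0.11 (SE, adjusted p = 0.197).

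eIF3 is the large scaffold that binds the small subunit and recruits mRNA, and 4 of its 10 tested genes fell, among them the core subunits a, b and c. Eif3b read 11.56, 11.41 and 11.55 on the WT arrays and 11.11, 10.75 and 10.73 on the KO arrays. Every KO array lay below every WT array, with KO replicate 1 nearest to WT. The fall was -0.64 ± 0.14 (SE, adjusted p = 0.0091), a second probe gave -1.24 ± 0.27 (SE, adjusted p = 0.0103), and both calls held in every alternative, although the second probe was at -0.56 (adjusted p = 0.00941) with no background correction. Eif3c read 11.25, 11.11 and 11.08 on the WT arrays and 10.79, 10.52 and 10.26 on the KO arrays, without overlap. It fell by a like amount, at -0.62 ± 0.16 (SE, adjusted p = 0.0153), with a second probe at -0.56 ± 0.17 (SE, adjusted p = 0.0382), a call that ended when any array but KO replicate 2 was left out (-0.71 to -0.42), under scaling to a common median and with no filter on dim probes. The gene's own call was lost without WT replicate 1, at -0.57 (adjusted p = 0.0595). Eif3a, the largest subunit, read 11.84, 11.96 and 12.06 on the WT arrays and 11.48, 11.47 and 11.62 on the KO arrays, without overlap. It was lower by less (-0.43 ± 0.12 SE, adjusted p = 0.0248), and leaving out WT replicates 2 or 3 or KO replicate 2 ended the call (difference -0.49 to -0.38, adjusted p up to 0.0885).

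Eif3j1 encodes the loosely bound j subunit. It read 6.95, 7.14 and 7.51 on the WT arrays and 6.47, 6.63 and 6.91 on the KO arrays. The lowest WT array was only just above the highest KO array. The difference was -0.53 ± 0.18 (SE, adjusted p = 0.0458), and 10 of 16 alternatives ended the call. It was -0.29 (adjusted p = 0.0632) with no background correction and about the same in the deposited log2 table. Leaving out WT replicates 2 or 3 or KO replicates 1 or 2 also ended it (-0.66 to -0.38 over the arrays left out, adjusted p up to 0.151). Eif3h came close to the threshold at -0.53 ± 0.19 (SE, adjusted p = 0.0581). The remaining eIF3 genes were not called and lay between -0.23 for Eif3l and 0.04 for Eif3k, with -0.17 for Eif3f, -0.06 for Eif3i and -0.04 for Eif3d. Eif3e and Eif3m were not detected on any array.

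In the eIF4 class 3 genes fell, the cap-binding protein among them. Eif4e read 7.09, 6.87 and 7.10 on the WT arrays and 5.82, 6.32 and 6.39 on the KO arrays. All KO arrays lay below WT, and KO replicate 1 was the lowest. The difference was -0.84 ± 0.17 (SE, adjusted p = 0.00669), or 1.79-fold. The call held in all 16 alternatives, but the size did not: with no background correction it was -0.41 (adjusted p = 0.00966), with a background correction of offset 50 -0.53 (adjusted p = 0.006), and in the deposited log2 table -0.40 (adjusted p = 0.00972). Its place among the falls of the class depended on this step, since with no background correction Eif4e3 was at -0.58 (adjusted p = 0.0196) and Eif4g2 at -0.57 (adjusted p = 0.00402).

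Eif4g2, also known as DAP5, is a relative of the eIF4G scaffold that lacks the cap-binding protein's docking site. Its signal was 12.09, 12.18 and 12.32 on the WT arrays and 11.75, 11.69 and 11.39 on the KO arrays, without overlap. The fall was -0.59 ± 0.14 (SE, adjusted p = 0.0127). It was lost without WT replicate 3 (-0.53, adjusted p = 0.0529) and with the mean of the gene's probes (-0.51, adjusted p = 0.053), since its further probes were at -0.63 ± 0.30 (SE, adjusted p = 0.144) and -0.31 ± 0.21 (SE, adjusted p = 0.302) and not called. Eif4e3, an Eif4e relative, fell by 0.66 (± 0.20 SE, adjusted p = 0.0334), although its groups overlapped, at 10.13, 9.65 and 10.12 on the WT arrays and 9.69, 9.11 and 9.10 on the KO arrays. Its call was lost with no filter on dim probes and without WT replicates 1 or 3 or KO replicates 2 or 3 (-0.86 to -0.56 with an array left out, adjusted p up to 0.112).

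The other tested genes of the eIF4 class had negative differences on their brightest probe and were not called. The RNA helicase genes were at -0.28 ± 0.12 (SE, adjusted p = 0.0959) for Eif4a1, -0.14 for Eif4a2 and -0.17 for Eif4a3, the helicase of the exon junction complex. Scaled to a common median, Eif4a1 was at -0.54 (adjusted p = 0.0151). The helicase helpers were at -0.37 ± 0.15 (SE, adjusted p = 0.0827) for Eif4b and -0.18 for Eif4h. Eif4e2, which encodes the cap-binding repressor 4EHP, was at -0.02. Further probes of Eif4a2 were at -0.44 and at 0.28, the latter with every KO array above WT. Those of Eif4e2 were at -0.45 and 0.03, and none of these further probes was called. Eif4g3, a second eIF4G scaffold, was detected on 2 arrays and Eif4e1b, known from oocytes, on 0, and both were left out of the test. Eif4g1 was not analysed here.

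The eIF4E-binding proteins held the only rise among the members. Eif4ebp1, the main mTORC1-controlled repressor of the cap-binding protein, read 10.69, 11.20 and 10.42 on the WT arrays and 11.32, 11.39 and 11.36 on the KO arrays. The KO arrays were close together and above all WT arrays, but WT replicate 2 lay close to them and the WT arrays were spread widely. The group means were 10.77 ± 0.39 in WT and 11.36 ± 0.04 in KO (SD, n = 3 each). The rise was 0.59 ± 0.19 (SE, adjusted p = 0.0402). It was lost without WT replicates 1 or 3 or any KO array (0.41 to 0.80, adjusted p up to 0.131), when arrays were scaled to a common median (0.45, adjusted p = 0.142) and with no filter on dim probes (0.59, adjusted p = 0.0776).

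Eif4ebp2, a second repressor of the family, pointed the other way without passing the test. It read 10.17, 10.26 and 10.22 on the WT arrays and 10.15, 9.87 and 9.24 on the KO arrays. The groups did not overlap, yet KO replicate 1 was nearly at the WT level and KO replicate 3 well below. The difference was -0.46 ± 0.21 (SE, adjusted p = 0.123), with -0.21 (adjusted p = 0.332) without KO replicate 3 and -0.66 (adjusted p = 0.0265) without KO replicate 1. Eif4enif1, which encodes the eIF4E transporter 4E-T, read 11.48, 11.52 and 11.57 on the WT arrays and 11.43, 11.61 and 11.43 on the KO arrays. The groups overlapped, at -0.03 ± 0.12 (SE, adjusted p = 0.863). The single probe of Eif4ebp3 was not detected on any array, with raw signals of 115.6 to 129.4.

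**Figure D4:**
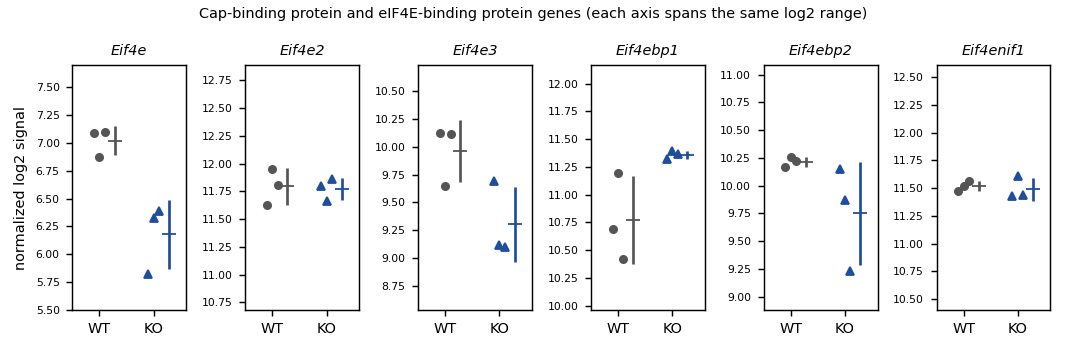
Log2 signals on the 3 WT and 3 KO arrays of Eif4e, Eif4e2, Eif4e3 and the 3 tested eIF4E-binding protein genes. Eif4e is lower on all KO arrays, Eif4ebp1 higher on all KO arrays and Eif4ebp2 spread in KO. The groups of Eif4e2, Eif4e3 and Eif4enif1 overlap.

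Among the late initiation factors, Eif5a, whose protein carries the modified lysine hypusine and helps ribosomes through stalling sequences, fell. It read 13.19, 13.27 and 13.23 on the WT arrays and 12.63, 12.89 and 12.74 on the KO arrays. The WT arrays were tightly grouped and above all KO arrays. The difference was -0.48 ± 0.12 (SE, adjusted p = 0.0168), with further probes at -0.49 ± 0.13 (SE, adjusted p = 0.0182) and -0.38 ± 0.13 (SE, adjusted p = 0.0613), of which the first was called, though not without WT replicates 1 or 3 or KO replicate 2 (-0.53 to -0.43). The gene's own call was lost without WT replicate 3, at -0.48 (adjusted p = 0.0536). Eif6 read 12.46, 12.47 and 12.55 on the WT arrays and 12.10, 12.10 and 12.12 on the KO arrays. Both groups were very narrow and did not overlap. The fall was -0.39 ± 0.11 (SE, adjusted p = 0.0266), with a second probe at -0.69 ± 0.18 (SE, adjusted p = 0.0192), and leaving out any array but KO replicate 1 ended the call (-0.40 to -0.36, adjusted p up to 0.0871), as did the replicate block. The call of the second probe was lost without WT replicates 1 or 2 or KO replicate 2 (-0.87 to -0.59) and with no background correction (-0.27, adjusted p = 0.0524).

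Eif5b, the GTPase that joins the subunits, was at -0.32 ± 0.16 (SE, adjusted p = 0.16), and Eif5, the activator of GTP hydrolysis by eIF2, at -0.16 ± 0.15 (SE, adjusted p = 0.446). A further Eif5 probe went the other way. It read 11.30, 11.33 and 11.45 on the WT arrays and 11.69, 11.66 and 11.95 on the KO arrays, with all KO arrays above WT, and was called at 0.41 ± 0.14 (SE, adjusted p = 0.0497), a call that ended whichever of the 6 arrays was left out and under scaling to a common median (0.26, adjusted p = 0.217). Eif5a2, a relative of Eif5a, was not detected.

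Among the Eef genes the only called gene was a modifier. Eef1aknmt encodes a methyltransferase, also known as METTL13, that modifies eEF1A. It read 9.63, 9.49 and 9.65 on the WT arrays and 8.89, 8.54 and 8.51 on the KO arrays. Every KO array lay more than 0.5 below every WT array. The fall was -0.95 ± 0.14 (SE, adjusted p = 0.00208), or 1.93-fold, it held in every alternative, and all 4 kept probes of the gene were called, from -0.55 to -1.47. The probe at -0.55 was detected on 3 WT and 0 KO arrays. It passed the filter through WT alone, so its call adds no support. With no background correction the probe at -1.47 was at -0.74 (adjusted p = 0.00475), the next, at -1.27, was at -0.78 (adjusted p = 0.000428), and the smallest was no longer called, at -0.19 (adjusted p = 0.0959). Eef1akmt1, another eEF1A methyltransferase, was at -0.35 ± 0.13 (SE, adjusted p = 0.0589).

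The Eef genes that are not modifiers were not called. Eef1a1, which delivers aminoacyl-tRNA, read 14.76, 14.70 and 14.88 on the WT arrays and 15.00, 14.76 and 14.86 on the KO arrays. Its groups overlapped, at 0.10 ± 0.13 (SE, adjusted p = 0.586). The genes of its nucleotide exchange complex were at -0.41 ± 0.16 (SE, adjusted p = 0.0695) for Eef1b2, 0.13 for Eef1d and -0.03 for Eef1g. Eef1b2 was called lower with no background correction, with offset 50, in the deposited log2 table and under scaling to a common median. The same held with other eBayes settings and with the mean of its probes (-0.58 to -0.40 over these, adjusted p 0.0204 to 0.0447). It was not called in the other alternatives. Eef1e1, a protein of the multisynthetase complex, was at -0.21 ± 0.20 (SE, adjusted p = 0.456), with 9.74 on KO replicate 1 and 10.42 and 10.52 on the other KO arrays. Eef1a2, the form of muscle and neurons, was detected on 1 array and Eef1akmt2 on 0.

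Eef2, the translocase, read 12.75, 12.59 and 12.94 on the WT arrays and 12.68, 12.21 and 12.32 on the KO arrays. KO replicate 1 lay within the WT range and the other two KO arrays below it. The difference was -0.36 ± 0.16 (SE, adjusted p = 0.115), and -0.51 (adjusted p = 0.0211) when arrays were scaled to a common median. Eef2 was also called lower with other eBayes settings (-0.36, adjusted p = 0.0474) and with array weights (-0.45, adjusted p = 0.0365). The same held without KO replicate 1 (-0.50, adjusted p = 0.0306), and it was not called in the other alternatives. Eef2k, the kinase that inhibits eEF2, was at 0.01, and Eef2kmt, its lysine methyltransferase, at -0.30. Without the 5 modifier genes of this family, 4 of them tested, the counts over all members became 15 lower and 1 higher of 44. Of the 6 tested Eef genes left, Eef1e1 among them, 0 were lower and 0 higher. Among those 6, 4 had a negative difference, with a median of -0.12.

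Further probes of the same genes gave a partly independent reading, on the same RNA. When each kept probe was tested among all 19082 kept probes, 27 of 89 member probes (30.3%) were lower and 2 (2.25%) higher, against 16.5% and 15.7% of all probes, with medians of -0.34 and -0.03. The number lower was 13, 16, 13 and 13 without WT replicates 1, 2 or 3 or KO replicate 3, and 0 or 1 were higher with any 1 array left out. The shares over all probes in these fits are not given here. Of 28 members with several kept probes, 21 had the same sign on all of them and 7 had both signs. Those with both signs were Eef2kmt, Eif2d, Eif3k, Eif4a2, Eif4e2, Eif4enif1 and Eif5. Of 10 called genes with several probes, Eif2s2, Eif3b, Eif3c, Eif6 and Eef1aknmt had all their kept probes called. The smallest fall among the Eef1aknmt probes was that of a probe kept through the WT arrays alone. Another 5 genes that were not called by their brightest probe had a called further probe, at -0.90 ± 0.25 (SE, adjusted p = 0.0243) for Eif4b, -0.63 ± 0.16 (SE, adjusted p = 0.0194) for Eef1b2, -0.54 ± 0.17 (SE, adjusted p = 0.0394) for Eef2 and -0.46 ± 0.14 (SE, adjusted p = 0.0379) for Eif2b1, beside the rise of the Eif5 probe given above. Each of these 5 calls was lost without at least 1 array: the Eif4b probe without WT replicates 2 or 3 or KO replicates 1 or 3 (-1.18 to -0.73), the Eef1b2 probe without WT replicates 1 or 2 or KO replicate 3 (-0.74 to -0.52), the Eef2 probe when any array but KO replicate 1 was left out (-0.71 to -0.45), and those of Eif2b1 (-0.54 to -0.35) and Eif5 (0.31 to 0.46) whichever array was left out. The Eif4b and Eef2 probes were also not called with no filter on dim probes, nor the Eif2b1 and Eif5 probes with the replicate block.

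**Figure D5:**
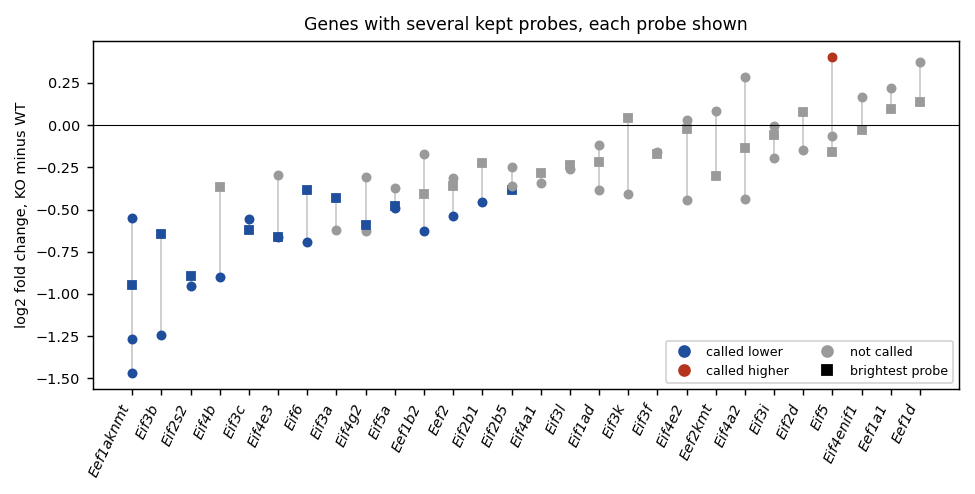
Log2 difference of every kept probe of the 28 members with more than 1 kept probe, 1 column a gene. The probes of 21 genes share a sign, and those of 7 genes lie on both sides of 0.

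Other genes of translation were counted by list, against the same 17.1% lower and 19.7% higher among all genes. Of 15 genes in a mixed list of cap, poly(A), mRNA-binding and other regulators of initiation, 5 fell and 0 rose, at a median of -0.25. Not all of them bind the cap, the poly(A) tail or mRNA. The largest falls were -1.15 ± 0.15 (SE, adjusted p = 0.00128) for Larp1, a repressor of ribosomal protein mRNAs, -0.95 ± 0.21 (SE, adjusted p = 0.00933) for the poly(A)-binding Larp4 and -0.93 ± 0.13 (SE, adjusted p = 0.00174) for Denr, which acts in reinitiation. The others were -0.78 for the helicase Ddx3x and -0.52 for Mcts1, the partner of Denr, and the call of Ddx3x was lost when any array but KO replicate 2 was left out (-1.07 to -0.50) and with no filter on dim probes (-0.78, adjusted p = 0.0899). With no background correction Larp4 was at -0.61 (adjusted p = 0.00571). Of 7 genes around eIF2 phosphorylation, kinases and phosphatase subunits together with Impact and Atf4, 0 fell and 2 rose, at a median of 0.20. These were Eif2ak1, the heme-regulated kinase, at 0.91 ± 0.17 (SE, adjusted p = 0.00404) and at 0.53 (adjusted p = 0.0228) as the mean of its probes, and Ppp1r15a, the inducible subunit of the eIF2 phosphatase, at 0.86 ± 0.22 (SE, adjusted p = 0.0177), which was lost without WT replicates 1 or 3 (0.78, adjusted p = 0.0653 and 0.87, adjusted p = 0.0555) and under scaling to a common median (0.72, adjusted p = 0.0534).

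Of 14 genes of mTORC1 and MNK signalling 0 fell and 2 rose, at a median of 0.16: Castor1, an arginine sensor, at 0.56 ± 0.16 (SE, adjusted p = 0.0259), and Mknk1, a kinase of eIF4E, at 0.48 ± 0.13 (SE, adjusted p = 0.0194). Both calls were lost with some arrays left out, Castor1 without WT replicates 1 or 3 or KO replicates 2 or 3 (at least 0.43) and Mknk1 without WT replicates 1 or 2 or KO replicate 3 (at least 0.42). The call of Mknk1 was also lost under scaling to a common median (0.37, adjusted p = 0.0533). With no background correction Castor1 was at 0.32 (adjusted p = 0.0323). Of 6 termination and recycling factors 2 fell and 1 rose, with -0.80 ± 0.16 (SE, adjusted p = 0.0059) for the recycling factor Abce1, -0.39 ± 0.11 (SE, adjusted p = 0.0267) for the release factor Etf1, and 0.53 ± 0.16 (SE, adjusted p = 0.0283) for Gspt2, a release-factor GTPase. With 1 array left out, the call of Etf1 held only without KO replicate 1 (-0.41 to -0.36) and ended with the replicate block (-0.39, adjusted p = 0.0522), and Gspt2 was lost without WT replicates 1 or 3 or KO replicate 3 (0.42 to 0.64). With no background correction Abce1 was at -0.53 (adjusted p = 0.00402) and Gspt2 at 0.22 (adjusted p = 0.0941).

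Of 7 enzymes that make hypusine on eIF5A or diphthamide on eEF2, 1 fell and 0 rose, at a median of -0.25, namely Dph2 of the diphthamide pathway at -0.82 ± 0.14 (SE, adjusted p = 0.00331). Of 10 mitochondrial translation factors 3 fell and 1 rose, at a median of -0.12. The largest were -0.88 ± 0.21 (SE, adjusted p = 0.0126) for the initiation factor Mtif3, -0.78 ± 0.12 (SE, adjusted p = 0.0024) for the release factor Mtrf1 and 0.62 ± 0.18 (SE, adjusted p = 0.0268) for the ribosome recycling factor Gfm2, and the third fall was that of the elongation factor gene Gfm1, at -0.49, lost without WT replicates 1 or 3 or KO replicate 3 (-0.59 to -0.39). Mtif3 was lost without WT replicates 1 or 3 (at most -0.74) and was -0.23 (adjusted p = 0.28) as the mean of its probes, and Gfm2 was lost without WT replicate 3 or KO replicate 3 (0.43 to 0.76), under scaling to a common median (0.56, adjusted p = 0.0556) and with no filter on dim probes (0.62, adjusted p = 0.0519). With no background correction Mtrf1 was at -0.52 (adjusted p = 0.00169).

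Markers of several cell types moved with the groups, and their part in the results was not tested. Of 9 tested T lineage markers 2 fell, Ptcra at -1.94 ± 0.20 (SE, adjusted p = 0.000667) and Rag1 at -2.80 ± 0.20 (SE, adjusted p = 0.000224), and 0 rose, with the summed normalized signal at 41492.8 to 44911.0 in WT and 40971.4 to 42560.8 in KO. Among these markers Cd5 and Cd8a were not detected on any array. Erythroid markers rose in 4 of 6 (Alas2, Klf1, Epor and Tfrc) and macrophage and dendritic cell markers in 5 of 6 (Adgre1, Csf1r, Lyz2, Cd14 and Fcgr1), with sums of 65692.6 to 73810.7 in WT and 84330.9 to 96397.8 in KO for the first and 5120.6 to 6705.4 and 9230.4 to 13556.9 for the second, where Itgax was not detected. Stroma and endothelium markers rose in 4 of 6, Col1a1, Col1a2, Pecam1 and Cdh5 (1466.8 to 1745.8 in WT and 2255.1 to 3928.1 in KO, with Kdr and Epcam not detected) and B cell markers in 1 of 4, Cd22 (458.9 to 785.7 and 1025.8 to 1949.7, with Pax5 not detected). Of 7 neutrophil markers 0 were called (4430.9 to 6427.2 and 3608.9 to 15351.4).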

How the data were processed

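Total RNA of 6 mice was measured, 3 arrays in each of the WT and KO groups, which were taken from the sample titles. The deposited raw table gives, per the file headers, the intensity and the detection p-value of 45281 probes per array. These deposited intensities are not normalized, since array medians run from 121.8 to 132.4. A deposited log2 table equals the quantile-normalized log2 raw signals within 5e-05 and served as an alternative. Scanner software is not given in the sources used here, and 0 columns of values per sample were left aside. The number of arrays limits precision.

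The intensities were normalized with neqc of limma 3.58.1 in R 4.3.3 (controls inferred from detection p-values, offset 16, quantile, log2). Folds of genes near background depend on this step. A probe was kept where 3 or more of the 6 arrays had a detection p under 0.05 (19082 probes), with the highest mean probe for each of 10209 genes. Members were chosen by the platform annotation's symbols. Probes were grouped into genes by the RefSeq symbol of the same gene identifier, or by the platform symbol where there was none. Each gene and, separately, each kept probe was tested with lmFit and eBayes, 2-sided, group as the only term, with Benjamini-Hochberg adjustment over all of them and a threshold of 0.05. Errors of differences are the fit's standard errors. Exact permutation of 3 arrays against 3 cannot go below p = 0.1. The gene fit was tested on simulated data. It called 6 of 67 genes (8.96%) changed by 0.5 on the log2 scale, 44 of 67 (65.7%) changed by 1 and 65 of 66 (98.5%) changed by 2. A member that was not called is therefore not shown to be unchanged.

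Any member could be named. Values on every array were given for called members without overlap, for the eIF4E-binding proteins, for Eif2s3y and, in a class without a call, for the member with the smallest p. From each further list came up to 3 called genes with the largest change. Eif4e3, the further Eif5 probe and Eef1a1 were given by array outside this rule. The members and all lists were chosen with earlier results of these data known. Alternatives were other background corrections, scaling, the deposited table, other filters, the mean of a gene's probes, other eBayes settings, array weights, the replicate block, and leaving out each array. Figures used matplotlib 3.10.9.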

Additional observations from a re-analysis of the deposited data

How the results depend on the processing

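With all arrays kept, the members that fell numbered 13 to 20 over the alternatives, and 7 to 19 with 1 array left out, against 16 in the report. The members that rose numbered 0 when arrays were scaled to a common median and 0 with no filter on dim probes, against 1, and 0 to 1 with 1 array left out. Among all genes 15.8% were higher under scaling, 9.56% with no filter and 13.1% to 20.5% with 1 array left out. Of member probes 13 to 29 were lower with 1 array left out, against 27, and 0 to 1 were higher. The shares over all probes in these fits and in the other alternatives are not given here. The probes higher were 0 under scaling to a common median, 1 with no filter and 1 under the replicate block, against 2. Scaling moved the median of all genes to -0.05 and that of the members to -0.40, and among all genes the share of calls that were higher from 53.5% to 47.3%. With the replicate number as a block, 13 members fell and 1 rose, against 16.6% and 19.7% of all genes, and 25 member probes were lower. Same-numbered arrays deviated together only weakly, at r of 0.17, 0.12 and -0.08, so the numbers were not taken to pair the mice, and the correlation was not highest for the own number in every array. Of the 17 called genes 6 held their call in every alternative: Eif1a, Eif2s2, Eif2b3, Eif3b, Eif4e and Eef1aknmt. No called gene changed sign, and 10 uncalled genes were called in some alternative. Leaving out the modifier genes, chosen after seeing the data, gave 15 lower and 1 higher. The slide was not run as a block, since the headers name none. The cause of these changes was not tested. Signals near background limit the sizes for Eif4e and Eif3j1, which changed by over 1.5 times with the background correction.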
